A study of Zea mays with 17 samples.

Results

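The 100 best-measured nuclear non-coding RNA rows of a maize anther count table are described here. Of its 46430 rows, 1765 carry an identifier that begins with ENSRNA, the form used for non-coding RNA genes in Ensembl annotations. The 100 with the highest sum of counts over all 17 libraries were taken as members, with ties ordered by identifier. The members were thus chosen by their total counts, and the size of those totals is given as a description. The members at ranks 99 and 100 had 71 counts each, and the rows just outside the list had 69 and 66.

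The plants were greenhouse-grown maize of the inbred W23 bz2, labelled wild type throughout. At each of the anther lengths 1.5 mm and 2.0 mm, meiocytes (ME, the cells that enter meiosis), tapetum (TAP, the nutritive layer around them) and other somatic cells (OSC) had been cut from the tissue by laser capture microdissection, and fixed anthers (FA) were sampled as well. Every group had 2 libraries except FA at 1.5 mm, which had 3, and all were CEL-seq2 libraries, in which reverse transcription starts at poly(A) tails and the 3' ends of transcripts are read. The labels do not say that replicates came from separate plants, so the p-values measure the spread between these libraries. The nuclear rows have no gene names here, so the captured cell types were not checked against markers.

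Non-coding RNA genes of plant genomes include those of ribosomal, transfer, spliceosomal and small nucleolar RNAs, which work in translation, splicing and RNA modification. The mature forms of most of these RNAs lack a poly(A) tail, whereas short tails are known on intermediates that are being processed or degraded in the nucleus. None of the 1765 rows matched the gene table at hand, so the class, position and sequence of each member are not given, and members other than those named by rule are called by rank and length. Many have the same length, so near-identical copies that could share reads cannot be told apart, nor can genes that overlap them on either strand.

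Library totals ran from 280760 to 4428287 counts, and ENSRNA rows held between 2013 and 24358 counts per library. For a library's share of counts in ENSRNA rows, the 95% Wilson interval extended at most 0.0439 percentage points to either side, which covers counting error only. A row with 0 counts can have had up to 3, which is 10.7 CPM (counts scaled to a common library total) in the smallest library and 0.677 CPM in the largest. A fold change against a group in which every library held 3 counts or fewer is therefore given as a lower bound against 3 counts per library.

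ENSRNA counts were concentrated in few rows. Over all libraries these rows held 135965 counts, or 0.428% of the total, and 131898 of them, 97.0%, fell in the 100 members. The first member alone held 34.4%, the first 5 held 49.6%, the first 10 held 59.97%, the first 20 held 73.6% and the first 50 held 90.2%. The median member had 390 counts, and 25 members had more than 1000. At the other end, 1284 of the 1765 rows had no count in any library, and the 1665 rows below rank 100 together held 4067 counts. The 154 microRNA gene rows of the same table had 0 counts in every library.

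Members were longer than other ENSRNA rows. Their median length was 835.5 bases, against 100 bases over all ENSRNA rows, and 56 of the 100 exceeded 600 bases, against 79 of 1765 (4.48%). The list was divided at 600 bases into 56 long and 44 short members, and no member lay between 565 and 691 bases. The long members ran from 691 to 1812 bases, and whether the division marks separate classes was not tested. The long members held 84.6% of all ENSRNA counts and 16 of the 20 highest ranks. Within them, 23 members measured 1810 to 1812 bases, of which 17 measured exactly 1811. Among the short members, 9 measured 155 or 156 bases. Of 752 rows of at most 90 bases, 8 were members and 84 had any count.

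Detection followed the same division. In all, 51 members had at least 1 count in every one of the 17 libraries, 41 of them long and 10 short, while the least widely detected member, rank 100, had counts in 3 libraries. Between 76 and 98 members were detected per library. Of the 100, 94 were also among the 100 ENSRNA rows with the highest mean CPM, so equal weighting of libraries gives nearly the same list. By mean CPM, 53 members were highest in TAP at 1.5 mm, 17 in OSC at 1.5 mm, 7 in ME at 2.0 mm, 6 each in ME at 1.5 mm and FA at 2.0 mm, 4 each in TAP and OSC at 2.0 mm, and 3 in FA at 1.5 mm.

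**Figure D1:**
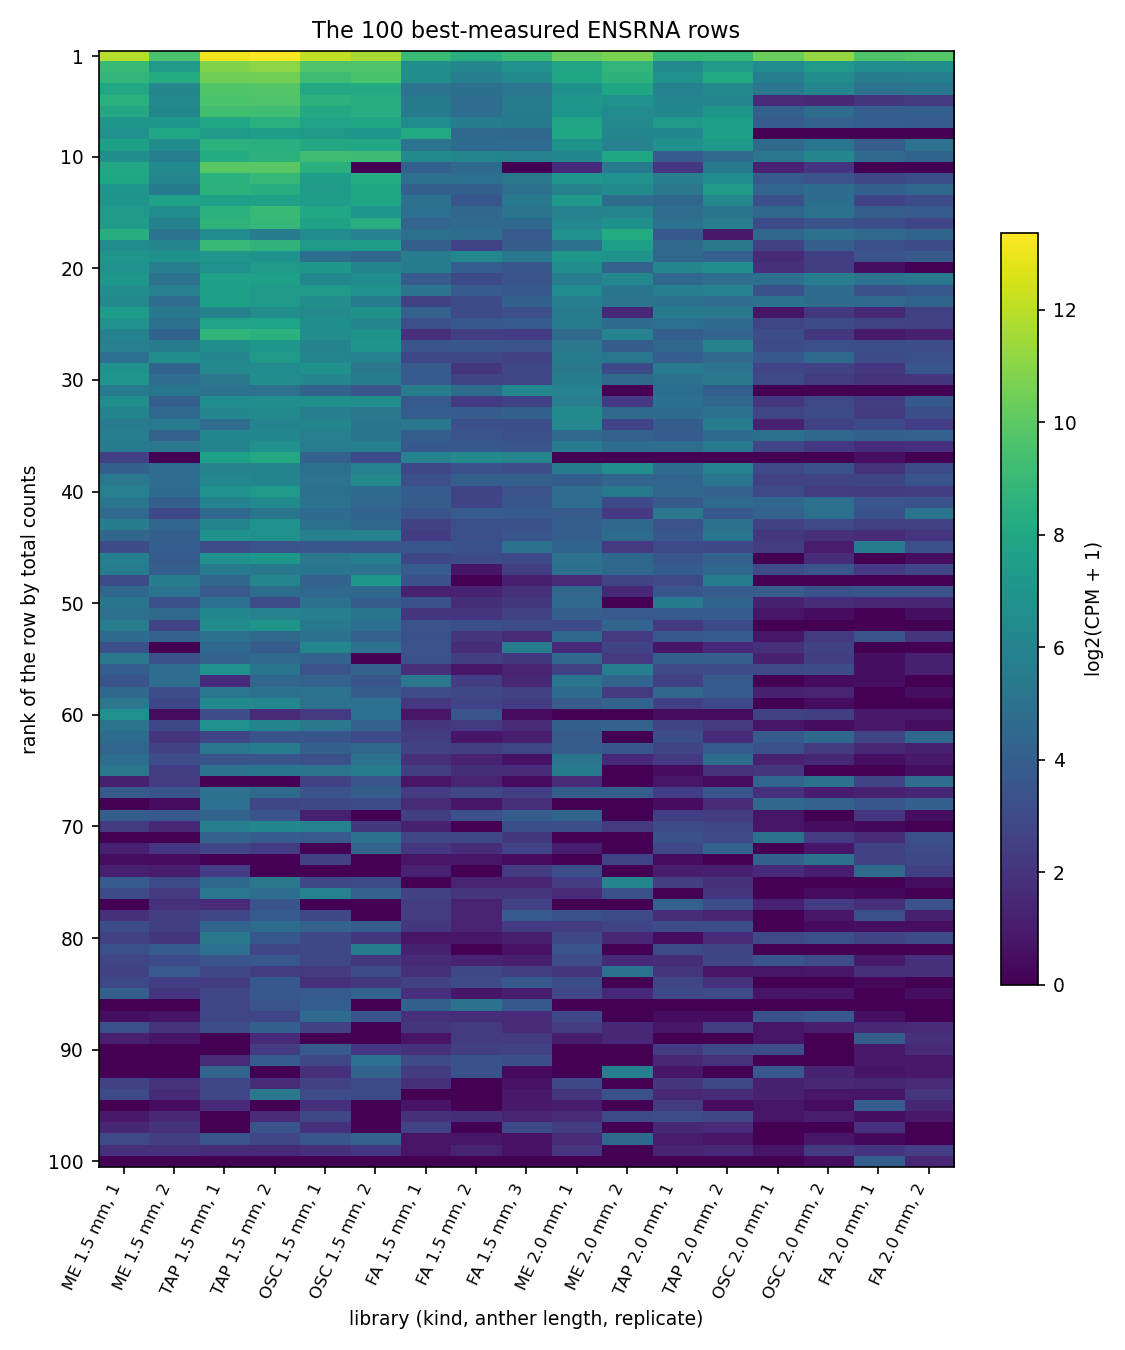
Level of each of the 100 members (vertical axis, rank by total counts) in each of the 17 libraries (horizontal axis), with colour giving log2 of CPM plus 1. The brightest block is in TAP at 1.5 mm at the top ranks, and dark stripes in the 4 libraries of OSC and FA at 2.0 mm include 6 members at 0 in all 4.

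The share of counts taken by ENSRNA rows was highest in the tapetum at 1.5 mm and lowest in fixed anthers. At 1.5 mm it was 2.28% and 2.59% in the TAP libraries, 1.23% and 1.10% in OSC, 1.05% and 0.394% in ME, and 0.235%, 0.156% and 0.197% in FA. At 2.0 mm it was 0.251% and 0.359% in TAP, 0.218% and 0.357% in OSC, 0.524% and 0.562% in ME, and 0.168% and 0.179% in FA. The highest library thus had 16.6 times the share of the lowest, and TAP at 1.5 mm stood above every other group without overlap. The ME replicates at 1.5 mm differed 2.65-fold, more than the mean of ME changed with length.

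With length, the mean share in TAP went from 2.43% ± 0.216 at 1.5 mm to 0.305% ± 0.0759 at 2.0 mm (SD, n = 2 each), 7.98-fold lower. In OSC it went from 1.16% ± 0.0892 to 0.288% ± 0.0984 (SD, n = 2 each), 4.05-fold lower, and in neither cell type did the libraries of the lengths overlap. In ME the means were 0.720% ± 0.460 and 0.543% ± 0.0270 (SD, n = 2 each), and in FA 0.196% ± 0.0394 (SD, n = 3) and 0.174% ± 0.00756 (SD, n = 2), with overlapping libraries in both. Over the 12 captured libraries the share at 2.0 mm was 0.293 times that at 1.5 mm, with p = 0.0278 in an exact two-sided permutation test within cell type and an adjusted p of 0.139 over the family of 10 such tests. The decrease did not pass the adjusted threshold of 0.05. With each of the 12 libraries left out in turn, the log2 difference lay between -2.01 and -1.54. Single cell types, with 2 libraries against 2, were not tested.

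Other measures moved alongside. The mitochondrial share of counts went from 10.2% to 0.945% in TAP, from 3.81% to 1.21% in OSC, from 5.46% to 5.14% in ME and from 1.44% to 1.19% in FA between 1.5 mm and 2.0 mm. Library totals also rose with length in TAP, from 495100 and 501897 counts to 2657831 and 3230264, and in OSC, from 815385 and 280760 to 1505065 and 2635680. In ME they went the other way, from 2329806 and 2795716 to 974064 and 559302, and in FA the totals of both lengths overlapped, at 1525315, 1288341 and 3440610 and then 4428287 and 2311928. The part of either measure in the ENSRNA share was not tested, and a smaller amount of these RNAs per cell cannot be told apart from more of other RNA.

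Captured cells had a higher ENSRNA share than fixed anthers. The geometric mean over the cell types was 6.30-fold higher at 1.5 mm and 2.05-fold higher at 2.0 mm, and 3.60-fold higher with both lengths weighted equally. All captured libraries of a length lay above all FA libraries of that length. An exact two-sided permutation test within length gave p = 0.000425, the smallest that its 2352 arrangements allow, and an adjusted p of 0.00425. On untransformed shares the difference was 0.72 percentage points, with an adjusted p of 0.139 by the same exact permutation test. Captured cells and fixed anthers differ in handling as well as in the cells they hold, which cannot be told apart here, nor can fewer cells of a type and less RNA per cell.

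Over both lengths, the share of no cell type passed the test of a difference from the other captured cells. The log2 difference was 0.56 for TAP (p = 0.271), -0.32 for OSC (p = 0.560) and -0.24 for ME (p = 0.658), each against the other captured cells in an exact permutation test within length, with adjusted p-values of 0.667, 0.794 and 0.794. The order of the cell types was not the same at both lengths: TAP was highest at 1.5 mm, ME was highest at 2.0 mm, and at 2.0 mm the TAP and OSC libraries overlapped.

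The share of ENSRNA counts held by the first member, and with it the evenness of the whole set, split the libraries along another line. Evenness is given as the effective number of rows, the number of equally abundant rows that would give the same chance of drawing 1 row in both of a pair of draws. In the 4 libraries of OSC and FA at 2.0 mm the first member held 57.3%, 65.8%, 49.6% and 51.4% of ENSRNA counts, against 13.6% to 40.9% in the other 13 libraries. The same OSC libraries had 2.997 and 2.28 effective rows and the same FA libraries 3.95 and 3.69, against 5.43 to 23.4 in the other 13.

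**Figure D2:**
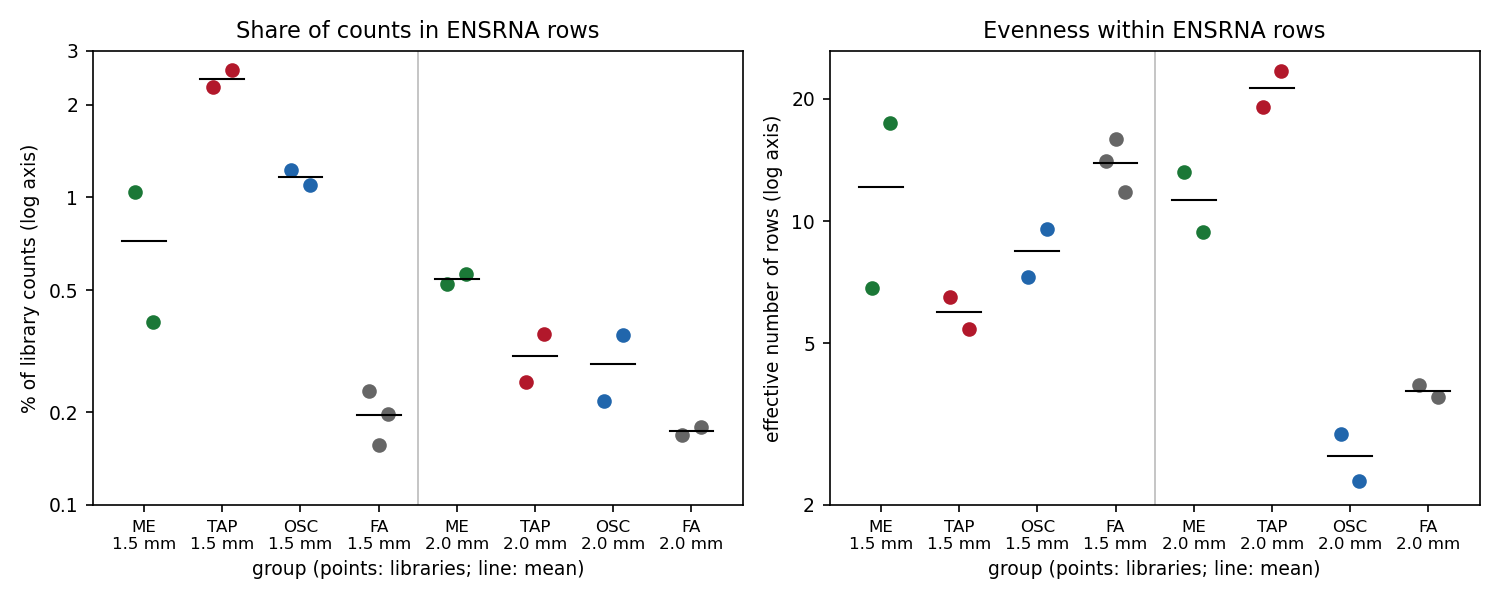
Percent of library counts in ENSRNA rows (left) and effective number of ENSRNA rows (right) for each library (points) by cell type and anther length, with group means as lines and both vertical axes logarithmic. TAP at 1.5 mm has the highest shares, 2.28% and 2.59%, while TAP at 2.0 mm has the most even set, 19.1 and 23.4 rows, and OSC and FA at 2.0 mm the least even.

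Evenness moved in opposite directions with length. In TAP it went from 6.50 and 5.43 effective rows at 1.5 mm to 19.1 and 23.4 at 2.0 mm. In OSC it went from 7.28 and 9.58 to 2.997 and 2.28, and in FA from 14.1, 15.9 and 11.8 to 3.95 and 3.69. The ME libraries overlapped, at 6.85 and 17.4 against 13.2 and 9.39. Over the 12 captured libraries these movements cancelled, with a log2 difference of 0.06 for length (adjusted p = 0.898, exact two-sided permutation test). At 2.0 mm OSC had the lowest evenness of the captured cells, whereas at 1.5 mm both OSC libraries lay above both TAP libraries. With both lengths combined, OSC was 1.25 lower on the log2 scale than the other captured cells. That difference did not pass the threshold (p = 0.0667, adjusted p = 0.222, exact permutation). The corresponding log2 differences were 0.61 for ME and 0.64 for TAP (adjusted p = 0.667 for each, exact permutation), and 0.20 for captured cells against FA (adjusted p = 0.794, exact permutation).

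The split rested on the first member. Once it was set aside, the remaining ENSRNA rows had 26.2 to 37.5 effective rows in the 4 libraries of OSC and FA at 2.0 mm and 20.5 to 39.6 in the other 13, so the ranges overlapped. The log2 difference of OSC from the other captured cells was then 0.01 and that of TAP was -0.13. The number of ENSRNA rows expected in 2013 counts, the smallest library's number, was 104 to 144 in those 4 libraries and 93.8 to 162 in the others.

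**Figure D3:**
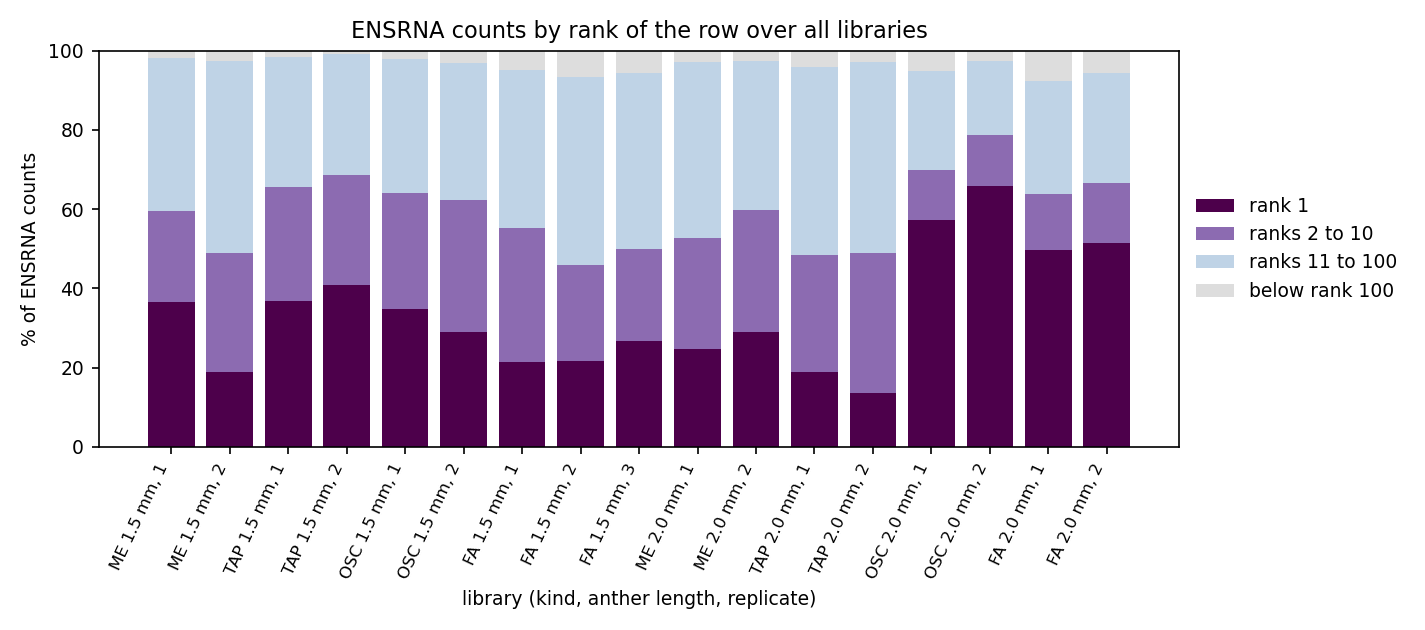
Percent of ENSRNA counts (vertical axis) in the first member, in ranks 2 to 10, in ranks 11 to 100 and in all rows below rank 100, for each of the 17 libraries. The first member holds 49.6% to 65.8% in the OSC and FA libraries at 2.0 mm and 13.6% in the second TAP library at 2.0 mm.

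The first member, ENSRNA049478600 (1811 bases), was the highest ENSRNA row in all 17 libraries, and its place among all rows of a library ran from 4 to 397. At 1.5 mm its CPM were 8380 and 10576 for the TAP libraries, 4280 and 3198 for OSC, 3824 and 744 for ME, and 505, 340 and 527 for FA. At 2.0 mm they were 472 and 486 for TAP, 1250 and 2350 for OSC, 1289 and 1629 for ME, and 836 and 920 for FA. The TAP libraries were the highest at 1.5 mm and the lowest at 2.0 mm, and FA was the only kind in which both libraries at 2.0 mm exceeded all at 1.5 mm.

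ENSRNA049478487 (1692 bases, rank 2) had the second highest total. Its level in TAP was 1846 and 2082 CPM at 1.5 mm and 81.6 and 146 CPM at 2.0 mm, in OSC 836 and 823 CPM and then 87.7 and 151 CPM, in ME 527 and 142 CPM and then 225 and 440 CPM, and in FA 92.4, 70.6 and 109 CPM and then 86.0 and 95.6 CPM. TAP and OSC each separated by length, and ME and FA overlapped. ENSRNA049479579 (1803 bases, rank 3) had 1440 and 1486 CPM in TAP at 1.5 mm and 113 and 277 CPM at 2.0 mm, with 596 and 727 CPM and then 54.5 and 92.2 CPM in OSC. ENSRNA049478147 (1811 bases, rank 4) had 844 and 895 CPM in TAP at 1.5 mm and 58.7 and 76.8 CPM at 2.0 mm. Both separated by length in the same cell types as rank 2.

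ENSRNA049478822 (1108 bases, rank 5) was near the bottom of its range in the OSC and FA libraries at 2.0 mm. In OSC it had 379 and 321 CPM at 1.5 mm and 1.99 and 1.90 CPM at 2.0 mm, and in FA 42.0, 27.9 and 44.5 CPM and then 3.39 and 3.89 CPM. In TAP it had 763 and 837 CPM and then 70.4 and 66.6 CPM, and in ME 371 and 76.9 CPM and then 132 and 113 CPM. The OSC values at 2.0 mm lay below those of every other group.

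ENSRNA049478576 (1811 bases, rank 8) had 0 counts in each of the 4 libraries of OSC and FA at 2.0 mm. Elsewhere it had 116 and 251 CPM in ME, 149 and 173 CPM in TAP, 153 and 128 CPM in OSC and 279, 22.5 and 22.1 CPM in FA at 1.5 mm, and 242 and 69.7 CPM in ME and 75.6 and 201 CPM in TAP at 2.0 mm. Unlike ranks 1 to 4, it was not highest in TAP at 1.5 mm, and its ME and TAP libraries overlapped between lengths. Another 5 members, at ranks 31, 48, 52, 81 and 86, were likewise at 0 in those 4 libraries. Unlike rank 8, rank 86 also had 0 counts in TAP and ME at 2.0 mm.

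The other members of the first 10 were between these patterns. ENSRNA049478482 (1811 bases, rank 6) fell from 638 and 608 CPM in TAP at 1.5 mm to 75.3 and 135 CPM at 2.0 mm. ENSRNA049478122 (1811 bases, rank 7) had 259 and 353 CPM and then 150 and 189 CPM in TAP, but 210 and 228 CPM and then 13.3 and 17.5 CPM in OSC. ENSRNA049478530 (1810 bases, rank 9) had 368 and 333 CPM and then 109 and 150 CPM in TAP. In all 3, the TAP libraries of 2.0 mm anthers were lower than those of 1.5 mm anthers, without overlap.

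ENSRNA049457201 (160 bases, rank 10) was the only short member of the first 10 and had its highest levels in OSC at 1.5 mm. In OSC it had 591 and 563 CPM at 1.5 mm and 37.2 and 71.0 CPM at 2.0 mm, against 307 and 391 CPM and then 13.5 and 23.8 CPM in TAP, 101.3 and 50.8 CPM and then 76.0 and 243 CPM in ME, and 79.3, 69.9 and 59.9 CPM and then 22.4 and 19.0 CPM in FA. It separated by length in TAP, OSC and FA, and overlapped in ME.

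**Figure D4:**
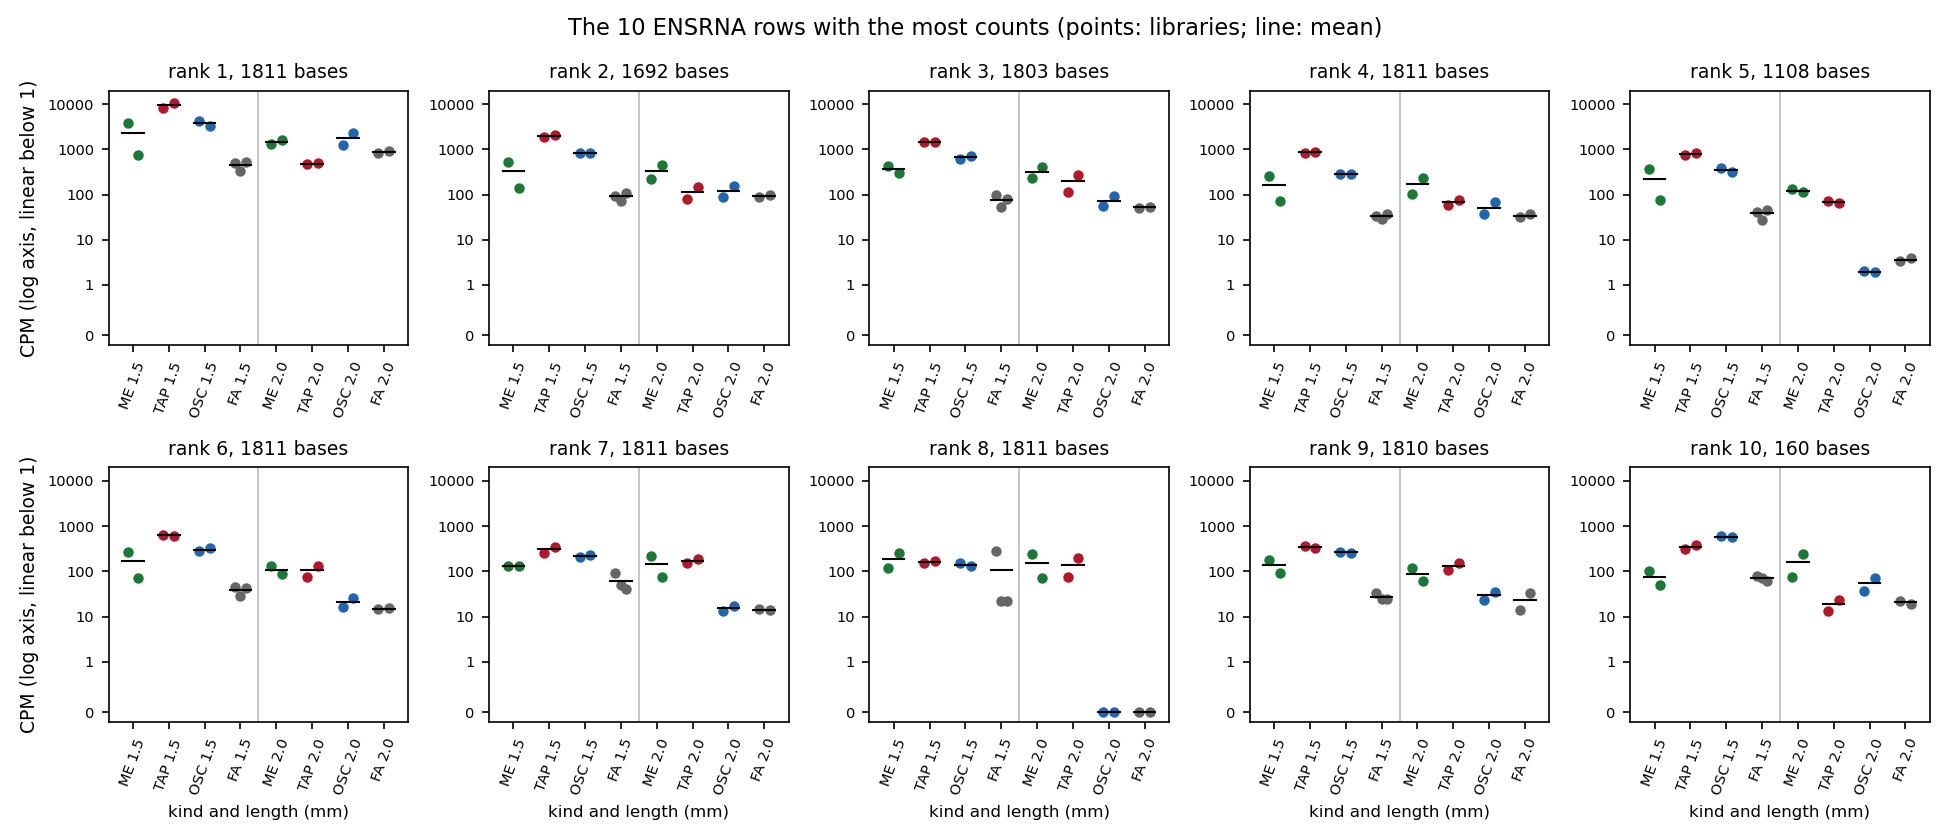
CPM of the 10 members with the most counts in each library (points) with group means (lines), by cell type and anther length in mm, on a vertical axis that is logarithmic above 1 CPM and linear below. Rank 1 reaches 10576 CPM in TAP at 1.5 mm, and rank 8 is at 0 in all OSC and FA libraries at 2.0 mm.

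Differences of single members were tested with the quasi-likelihood test of edgeR on all rows, with Benjamini-Hochberg adjustment over the whole table, and rows with an adjusted p under 0.05 are called. The fit of captured libraries tested 91 members, that of FA 72 and that of all libraries 95. A low-count filter left out the rest, so a tested member with low counts had to be high in some group.

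In the tapetum, every called member fell as the anther lengthened. Of 91 tested, 14 were called lower at 2.0 mm and 0 higher, where 2.85% and 0.868% of all rows tested were called in those directions. The median log2 change of the tested members was -1.98, against 0.00 over all rows tested. The 14 were 12 long and 2 short members, 12 of them within ranks 1 to 25, and all 25 of those ranks had a negative change. Among all 100 members, 73 had both TAP libraries at 2.0 mm below both at 1.5 mm and 3 had both above, where 22% and 25% of detected rows did.

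The first member fell by 4.28 on the log2 scale in TAP (SE 0.68, adjusted p = 0.00380 by edgeR, lower in 2 of 2 libraries). Rank 2 fell by 4.09 (SE 0.67, adjusted p = 0.00441), rank 10 by 4.19 (SE 0.72, adjusted p = 0.00588) and rank 26, of 770 bases, by 4.52 (SE 0.81, adjusted p = 0.00742), all by edgeR. Ranks 3 to 6 were called too, with log2 changes between -3.65 and -2.54. Ranks 7, 8 and 9 were not, with log2 changes of -0.83, -0.21 and -1.40 and adjusted p-values of 0.514, 0.963 and 0.206 by edgeR. The member of rank 37, of 200 bases, had 202 and 267 CPM in TAP at 1.5 mm and 0 counts in both libraries at 2.0 mm, which is at least 228-fold lower (adjusted p = 0.00974, edgeR). The number of called members was 9, 7, 1 and 3 without the first or second TAP library at 1.5 mm or the first or second at 2.0 mm. DESeq2 called 31 members, all lower, where it called 6.72% of all rows with an adjusted p lower and 2.31% higher.

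In other somatic cells, called members were likewise all lower at 2.0 mm. Of 91 tested members 6 were called lower at 2.0 mm and 0 higher, where 0.201% and 0.0885% of all rows tested were called, and the median log2 change was -3.16, or -2.89 with 22 members at their bound, against 0.17 over all rows tested. All 6 were long. Rank 5 fell by 7.18 (SE 0.85, adjusted p = 0.00433, edgeR), rank 7 by 3.54 (SE 0.67, adjusted p = 0.0414), and rank 8 was at least 89.9-fold lower (adjusted p = 0.0129), each lower in 2 of 2 libraries. The first member had a log2 change of -0.80 (SE 0.59, adjusted p = 0.686, edgeR). In all, 72 of the 100 members had both OSC libraries at 2.0 mm below both at 1.5 mm and 8 above, against 19.6% and 21.6% of detected rows. Leaving out either OSC library at 1.5 mm left 1 call and leaving out either at 2.0 mm left 0. DESeq2 called 41 members, all lower, where it called 1.85% of all rows with an adjusted p lower and 1.41% higher.

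In meiocytes no member was called by edgeR in either direction, where 0.0059% of rows tested were called lower and none higher, and DESeq2 called 0 members too, where it called 1.05% of rows lower and 0.387% higher. At an unadjusted p under 0.05, edgeR had 3 members, against 12.2% of all rows tested. The median log2 change in ME was -0.67, against -0.58 over all rows tested, and with RLE size factors the medians were -0.14 and -0.02. Of the 100 members, 9 had both ME libraries at 2.0 mm below both at 1.5 mm and 4 above, where 18.3% and 7.01% of detected rows did. Without the second ME library at 1.5 mm, 2 members were called.

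In fixed anthers, members were called in both directions, but only the share called lower was above that of all rows tested. Of 72 tested, 8 members were called higher at 2.0 mm and 19 lower, where 15.2% and 14.5% of all rows tested were called, with a median log2 change of -0.77 against 0.01. The first member rose by 1.09 (SE 0.21, adjusted p = 0.00430, edgeR, higher in 2 of 2 libraries). Rank 21, of 1812 bases, rose by 1.97 (SE 0.34, adjusted p = 0.00273). Its levels were 13.1, 6.99 and 10.2 CPM at 1.5 mm and 32.5 and 39.4 CPM at 2.0 mm. ENSRNA049466686 (161 bases, rank 66) had 0.656, 1.55 and 0.291 CPM, 1 or 2 counts each, and then 5.42 and 26.8 CPM, at least 9.36-fold higher (adjusted p = 0.00735, edgeR).

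More of the called members fell than rose in fixed anthers. Rank 5 fell by 3.24 (SE 0.39, adjusted p = 0.000398, edgeR), rank 7 by 1.92 (SE 0.37, adjusted p = 0.00504), rank 10 by 1.58 (SE 0.25, adjusted p = 0.00179) and rank 6 by 1.20 (SE 0.32, adjusted p = 0.0197). The member of rank 37 had 59.0, 76.1 and 66.8 CPM at 1.5 mm and 0.452 and 0 CPM at 2.0 mm, at least 68.2-fold lower (adjusted p = 2.57e-05, edgeR), and that of rank 31, of 156 bases, was at least 49.6-fold lower (adjusted p = 0.000799). Rank 8, at 0 in both libraries at 2.0 mm, was not called (adjusted p = 0.194, edgeR), with its FA libraries at 1.5 mm at 279, 22.5 and 22.1 CPM. Leaving out 1 FA library at a time gave 22 to 36 called members. Of all 100 members, 49 were lower in both FA libraries at 2.0 mm than in all 3 at 1.5 mm and 15 were higher, against 22.9% and 18.7% of detected rows.

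**Figure D5:**
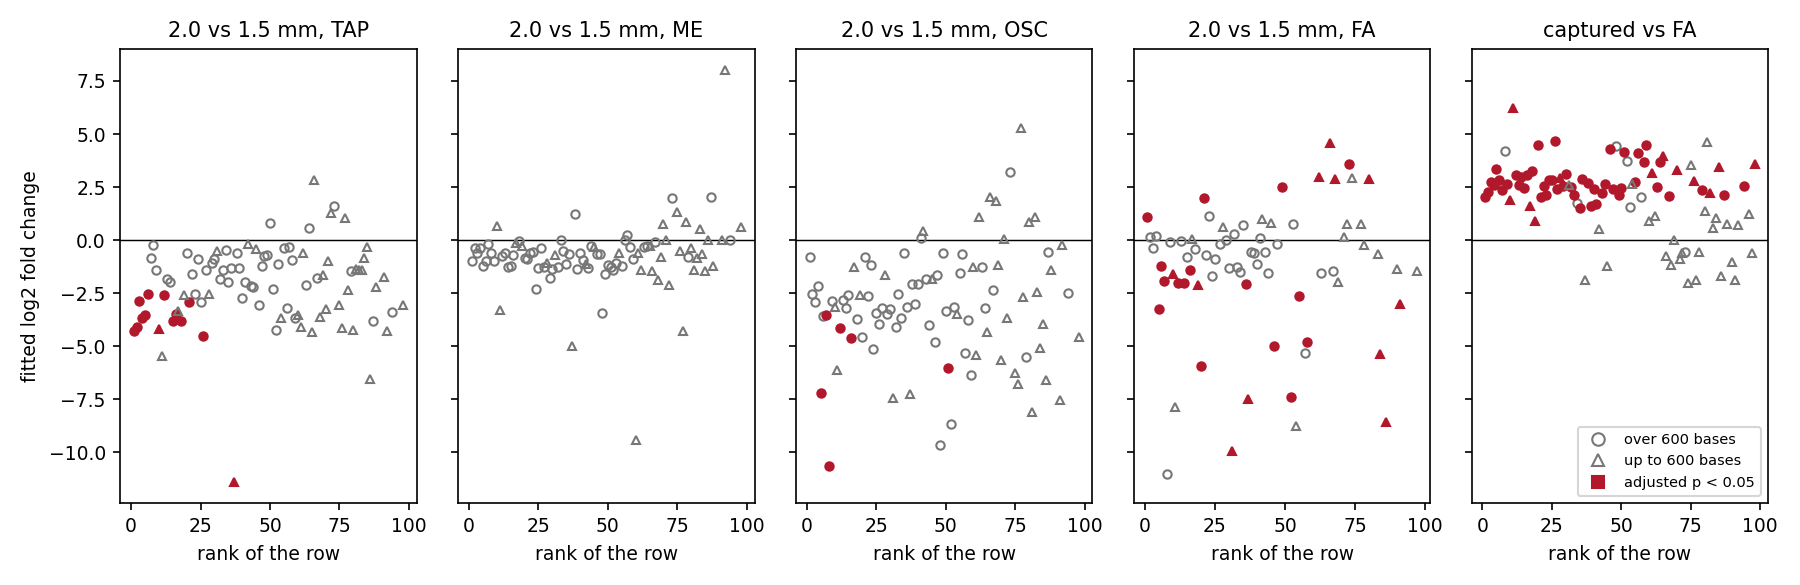
Fitted log2 fold change (vertical axis) of each tested member by rank (horizontal axis) for 2.0 mm against 1.5 mm in TAP, ME, OSC and FA and for captured cells against FA, with long members as circles, short members as triangles and called members (14, 0, 6, 27 and 61) filled. Called members lie below 0 in TAP and OSC, on both sides in FA and above 0 in captured cells, and values of members at 0 in a whole group depend on the fit and are no bounds.

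Captured cells were higher than fixed anthers in most members. Of 95 tested, 61 were called higher in captured cells and 0 lower, where 2.16% and 21.9% of all rows tested were called. The median log2 difference was 2.43, or 2.42 with 2 members at their bound, against -0.61 over all rows tested. The called members were 49 of the 56 long members and 12 of the 39 short members tested, and 24 of ranks 1 to 25. With library totals in place of scaling factors, 58 members were called higher and 2 lower.

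In the first 10, only rank 8 was not called, and its fit gave no usable error. The first member was 2.05 higher on the log2 scale (SE 0.32, adjusted p = 0.000324, edgeR), rank 3 was 2.72 higher (SE 0.29, adjusted p = 1.58e-05), rank 5 was 3.36 higher (SE 0.38, adjusted p = 2.12e-05) and rank 10 was 1.89 higher (SE 0.32, adjusted p = 0.000605). The excess of the first member was 3.56 at 1.5 mm alone (SE 0.44, adjusted p = 0.000124, edgeR). At 2.0 mm alone it was 0.54 and not called (SE 0.44, adjusted p = 0.486, edgeR). Ranks 3, 5 and 10 were called higher at each length alone. Rank 26 was 4.65 higher (SE 0.47, adjusted p = 8.31e-06, edgeR), with 19.0 to 440 CPM in captured libraries at 1.5 mm and 2.62, 4.66 and 4.07 CPM in FA at that length. With each length alone, 59 members were called higher and 1 lower at 1.5 mm, and 28 higher and 1 lower at 2.0 mm, where 2.92% and 11.6%, then 0.448% and 11.1%, of all rows tested were called. Without the first FA library at 2.0 mm, 40 members were called in all.

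Comparisons between cell types weight both lengths equally on the log scale. Most called members were higher in ME and in TAP than in OSC, in 2 comparisons that share the OSC libraries. Each comparison tested 91 members. The share of members with more in TAP was well above that of all rows tested. For ME, the corresponding share was only slightly above that of all rows. In both comparisons, the share of members called on the OSC side was below that of all rows. For ME against OSC, 17 members were called higher in ME and 4 lower, where 15.3% and 34.1% of all rows tested were called, with a median log2 difference of 0.93 (0.87 with members at their bound) against -0.92. For TAP against OSC, 19 were called higher in TAP and 3 lower, where 3.86% and 14.2% of all rows tested were called, with medians of 1.30 (1.26 with bounds) and -0.17. For TAP against ME, 4 members were called higher in TAP and 2 lower, where 23.3% and 15.4% of all rows tested were called, with medians of 0.37 and 0.46. With both lengths averaged, all 6 of those last calls were short members.

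The same comparisons were made at each length alone. For TAP against ME, 8 members were called higher in TAP and 0 lower at 1.5 mm, where 10% and 7.13% of all rows tested were called. Of these 8, 4 were long, ranks 2, 3, 4 and 26, which were 2.32, 1.71, 2.16 and 3.09 higher in TAP on the log2 scale (SE 0.62, 0.54, 0.64 and 0.76, adjusted p = 0.0234, 0.0442, 0.0357 and 0.0159 by edgeR). At 2.0 mm the same comparison had 0 members higher in TAP and 3 lower, all short, where 18.1% and 9.66% of all rows tested were called. At 1.5 mm, 1 member was called higher and 3 lower in ME than in OSC, where 7.49% and 16.3% of all rows tested were called, and 0 were called between TAP and OSC, where 0.614% and 2.24% were, with 8 members, and 18.2% of all rows, at an unadjusted p under 0.05. At 2.0 mm, 23 were called higher and 3 lower in ME, where 8.95% and 27.9% of all rows were, and 14 higher and 3 lower in TAP, where 2.45% and 12.5% were. The first member was among those lower in TAP than in OSC at 2.0 mm, by 2.12 (SE 0.62, adjusted p = 0.0342, edgeR). At 1.5 mm it was 1.36 higher in TAP than in OSC and not called (SE 0.60, adjusted p = 0.252, edgeR).

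Whether the change with length differed between kinds was tested by the interaction of the 2, with edgeR. For TAP minus ME, 1 member was called with a negative difference, ENSRNA049457201, and 0 with a positive one, where 0.325% and 0.791% of all rows tested were called. For TAP minus OSC, 1 member was called with a positive difference, ENSRNA049478576, and 0 with a negative one, where 0.118% and 0.691% of all rows tested were called. For captured cells minus FA, 3 members were called with a negative difference and 0 with a positive one, where 1.02% and 0.071% of all rows tested were called. Leaving out 1 library at a time gave 0 to 7, 0 to 1 and 0 to 5 called members in these 3 contrasts.

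For OSC minus ME, 0 members were called in either direction, where 0.0118% of all rows tested were called lower and 0.0059% higher. At an unadjusted p under 0.05 there were 35 of 91 tested members, against 13.4% of all rows tested. DESeq2 called 21 members, all lower, where it called 0.954% of all rows with an adjusted p lower and 1.44% higher. Without the first or second ME library at 1.5 mm edgeR called 9 and 2 members, and without the first or second at 2.0 mm it called 3 and 1.

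ENSRNA049457503 (62 bases, rank 19) was higher in meiocytes than in other somatic cells. It had 126 and 106 CPM in ME and 27.0 and 21.4 CPM in OSC at 1.5 mm, and 132 and 114 CPM in ME and 1.99 and 4.55 CPM in OSC at 2.0 mm. It was 3.67 higher in ME on the log2 scale (SE 0.53, adjusted p = 0.000139, edgeR), with all 4 ME libraries above all 4 OSC libraries. In TAP it had 125 and 112 CPM at 1.5 mm and 22.2 and 16.1 CPM at 2.0 mm, and it was 1.39 lower in TAP than in ME (SE 0.47, adjusted p = 0.0318, edgeR). In ME its libraries overlapped between the lengths, and in TAP, OSC and FA they did not.

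In the opposite direction, ENSRNA049465410 (120 bases, rank 68) had 0, 1, 0 and 0 counts in the ME libraries, against 6.13 and 7.12 CPM in OSC at 1.5 mm and 20.6 and 18.2 CPM at 2.0 mm, at least 4.82-fold higher in OSC (adjusted p = 0.00358, edgeR). ENSRNA049466686 (rank 66) had 0, 0, 2 and 1 counts in TAP, against 4.91 and 10.7 CPM in OSC at 1.5 mm and 19.3 and 30.7 CPM at 2.0 mm, at least 4.65-fold higher in OSC (adjusted p = 0.0133, edgeR). Both rows were thus at or under the counting limit in every library of 1 captured cell type. They were also at or under 3 counts, or 10.7 CPM, in the second OSC library at 1.5 mm. At 1.5 mm alone neither difference was called, with adjusted p-values of 0.0796 for rank 68 and 0.226 for rank 66 by edgeR. At 2.0 mm alone both were called, at 0.0172 and 0.0339. Both rows had their highest mean CPM in OSC at 2.0 mm.

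The calls for cell types depended on single libraries. Without the second OSC library at 1.5 mm or the first at 2.0 mm, ME against OSC had 13 and 11 called members in place of 21. TAP against OSC fell from 22 called members to between 3 and 12, whichever of its 8 libraries was left out. TAP against ME moved from 6 to 11 without the first ME library at 1.5 mm, to 3 without either TAP library at 1.5 mm and to 2 without the second TAP library at 2.0 mm.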

How the data were processed

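RNA of 17 CEL-seq2 libraries in 8 groups was analysed, grouped and numbered as their titles say. In the table that the authors deposited, each row has raw counts and a length in bases. The submitters' processing notes name fastp, Trim Galore and HISAT2, without versions. The genome build, the annotation, the counting step, use of strand and collapsing of molecular identifiers are not given in the sources used here. The table had 0 rows that name no gene and 0 unused per-sample columns.

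Members were the 100 rows with identifiers beginning ENSRNA that had the highest total counts. The members, lists and tests were chosen with earlier results of these data known. The 10 highest rows are described by identifier, and so are at most 2 called members that rose and 2 that fell: in a fixed order of comparisons, the called member with the largest change among those with non-overlapping replicates and averaging 20 or more counts on the higher side. Other members were chosen for description after their values were seen.

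CPM are the deposited counts scaled to a common library total. Shares and effective numbers of rows (unbiased inverse Simpson index) were computed over all ENSRNA rows, so that the choice of members did not enter, and compared as log2 values by exact two-sided permutation tests within strata, with Benjamini-Hochberg adjustment over 10 tests. Rows were tested with edgeR 4.0.16 (limma 3.58.1, R 4.3.3): quasi-likelihood F-test, robust dispersions, TMM factors, filterByExpr by group (minimum count 10, minimum total 15). The 12 captured libraries, the 5 FA libraries and all 17 were fitted separately, on 16940, 16116 and 18310 rows, with biological coefficients of variation of 70.6%, 29.5% and 57.1%. Members at or under 3 counts in every library of a group are given as bounds. Shares of counts have 95% Wilson intervals.

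Alternatives were RLE size factors, library totals, no filter, DESeq2 1.42.0, the replicate number as a block, single lengths, the ranking by mean CPM, each library left out, nuclear counts as denominator, untransformed values and shares without the highest row. Interactions of length with kind were added after the data were seen. The edgeR step was also run on simulated data, but the outcome is not given here and no error rate is drawn from it. Python 3.11.15, NumPy 2.4.6, pandas 2.3.3, SciPy 1.17.1 and matplotlib 3.10.9 were used.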

Additional observations from a re-analysis of the deposited data

Results flagged for a closer look

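Members whose change with anther length differed between kinds of sample were found by testing the interaction of length and kind with edgeR, a test added after the data were seen. ENSRNA049457201 (rank 10) changed differently in TAP and ME, with a difference of -4.85 on the log2 scale (SE 0.94, adjusted p = 0.0281), since both TAP libraries at 2.0 mm were lower than at 1.5 mm while the ME libraries overlapped. In that direction 0.325% of all rows tested were called. This contrast had 7 and 3 called members without the first or second ME library at 1.5 mm and 5 without the first at 2.0 mm, and 0 without the second ME library at 2.0 mm or any one of the TAP libraries. ENSRNA049478576 (rank 8) differed between TAP and OSC by a fitted 10.44 (adjusted p = 0.0216), a value that depends on the fit because OSC at 2.0 mm had 0 counts. Its level in TAP at 2.0 mm was at least 88.3-fold that in OSC, and 0.118% of rows tested were called in that direction. That call was absent without either OSC library of either length, either TAP library at 1.5 mm or the second at 2.0 mm.

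Between captured cells and FA, 3 members were called in the interaction, each with a smaller excess in captured cells at 2.0 mm, where 1.02% of rows tested were called in that direction. ENSRNA049478600 (rank 1) differed by -3.02, ENSRNA049478487 (rank 2) by -2.39 and ENSRNA049478144 (rank 21) by -3.42, with adjusted p-values of 0.0134, 0.0458 and 0.0185 by edgeR. Without any one of the FA libraries at 1.5 mm the contrast had 0 calls, without the first at 2.0 mm it had 1, and it had 5 without either ME library at 1.5 mm or the second at 2.0 mm.

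The effective number of ENSRNA rows rose from both TAP libraries at 1.5 mm to both at 2.0 mm, reaching a mean of 21.3, while it fell in OSC to a mean of 2.64 and in FA to a mean of 3.82. Every library of TAP moved one way and every library of OSC and FA the other, and the difference between these kinds was not tested. With the first member left out, the effective number still rose in TAP, from 21.0 and 20.5 to 38.8 and 30.6. In OSC, at 27.1 and 25.1 and then 37.5 and 26.2, and in FA, at 24.6, 39.6 and 38.8 and then 35.3 and 33.2, the libraries then overlapped between the lengths.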

How the results depend on the processing

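Of 344 values recomputed under an alternative, 261 kept their direction and their side of the threshold or stayed within 1.5 times a count, 72 counts moved further, 9 differences reversed, 1 became stronger and 1 weaker. The causes were not tested, except that leaving out a library reduces the samples and dropping the filter adds rows.

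Differences in log2 share were as follows. Without the highest row, ME against the other captured cells reversed to 0.023, and the log2 difference in effective rows reversed to -0.13 for TAP, 0.011 for OSC and -0.25 for captured cells against FA. On untransformed shares captured cells exceeded FA by 0.72 points, short of the threshold. Leaving out 1 library gave log2 differences in share of -0.59 to 0.11 for ME, 0.37 to 0.69 for TAP, -0.60 to -0.14 for OSC, -2.01 to -1.54 for length and 1.74 to 2.01 for captured cells against FA, and in effective rows of 0.27 to 0.94, 0.44 to 0.86, -1.37 to -1.06, -0.16 to 0.29 and 0.05 to 0.39 in that order. The ME share turned positive (0.11) without the second ME library at 1.5 mm. The length difference in effective rows was -0.16 without the first ME library at 1.5 mm, -0.0046 without the first OSC library at 1.5 mm, -0.02 without the first ME library at 2.0 mm and -0.0039 without the first OSC library at 2.0 mm.

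Called members moved as follows, with the range over left-out libraries last. TAP against ME had 6, with 3 at 2.0 mm alone (2 to 11). ME against OSC had 21, with 4 at 1.5 mm alone (11 to 28). TAP against OSC had 22, with 0 at 1.5 mm alone and 14 with RLE size factors (3 to 12). For length, TAP had 14, and 31 by DESeq2 (1 to 9), ME had 0, and 3 with no filter (0 to 2), OSC had 6, with 11 on library totals, 28 with no filter and 41 by DESeq2 (0 to 1), and FA had 27, with 42 with no filter (22 to 36). Captured cells against FA had 61, with 29 at 2.0 mm alone (40 to 65). For the interactions, TAP with ME had 1, with 4 on RLE size factors, 7 with no filter and 13 by DESeq2 (0 to 7), TAP with OSC had 1, with 4 with no filter and 6 by DESeq2 (0 to 1), OSC with ME had 0, with 4 with no filter and 21 by DESeq2 (0 to 9), and captured cells with FA had 3, with 5 with no filter and 12 by DESeq2 (0 to 5).

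With the replicate number as a block, called members were 4 for TAP against ME, 18 for ME against OSC, 12 for TAP against OSC, 11, 0, 5 and 25 for length in TAP, ME, OSC and FA, 56 for captured cells against FA, and 1, 1, 0 and 0 for the interactions in the order above. Deviations of same-numbered libraries correlated between -0.0466 and 0.0748 within a length. Between the lengths of 1 kind the correlations were -0.212 in ME, 0.0035 in TAP, -0.0197 in OSC and -0.103 in FA. Such values cannot show whether libraries of the same number share a plant or a batch, which the labels do not say. Over all rows tested, library totals gave 305 rows higher and 5893 lower in captured cells than in FA against 396 and 4011, and 2005 higher and 2893 lower at 2.0 mm in FA against 2444 and 2338. Of the TAP and ME interaction calls, 80 were higher and 98 lower with RLE size factors against 134 and 55. The scaling moved the median of all rows for length in ME from -0.58 to -0.02.

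Depth limited the lower ranks: the median member had 3.03 to 43.8 CPM per library, where 3 counts were 0.677 CPM in the deepest and 10.7 CPM in the shallowest, and 5 to 28 members were not tested.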

Other observations

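Some members were carried by a single library. In 7 members, 1 library held more than 50% of all counts. The row of rank 60 (74 bases) had 239 of its 299 counts in the first ME library at 1.5 mm, 79.9%, and 103 CPM there against 0.358 CPM in the other ME library of that length. The row of rank 100 (147 bases) had 66 of 71 counts in the first FA library at 2.0 mm. Of the other 5, ranks 74, 89 and 95 also had most counts in that FA library, rank 54 in the third FA library at 1.5 mm and rank 73 in the second OSC library at 2.0 mm.

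The 9 members of 155 or 156 bases differed between the FA libraries at 2.0 mm. Their summed level in the first was 114 CPM, and 19.5 CPM in the second, a ratio of 5.85, and 8 of the 9 were higher in the first, while the ENSRNA shares of these libraries were 0.168% and 0.179%. The same sum was 82.0, 56.7 and 159 CPM in FA at 1.5 mm, 128 and 12.5 CPM in ME at 2.0 mm, and 7.97 and 3.41 CPM in OSC at 2.0 mm. These rows may share reads, so they are not independent.

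The row of rank 11 (298 bases) had 986 and 1002 CPM in TAP at 1.5 mm and 3.39 and 41.2 CPM at 2.0 mm. In OSC at 1.5 mm it had 363 CPM in the first library and 0 counts in the second, which allows up to 10.7 CPM.

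The rows of ranks 31 and 86 (156 and 79 bases) and of rank 37 (200 bases), among the members at or near 0 in FA at 2.0 mm, differed in where else they were found. Rank 37 had 4.72 and 0 CPM in ME at 1.5 mm and 0 in both ME libraries at 2.0 mm, rank 86 had 0 counts in all 4 ME libraries, and rank 31 had 43.4, 35.4, 59.5 and 0 CPM in ME.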
